A study of Mus musculus with 15 samples.

Results

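Creatine kinases, adenylate kinases and myoglobin form the transcript group described here, taken from a study of mouse hearts that lack MAT1. The members were fixed by name as Ckm, Ckmt2, Ckb, Ak1, Ak3, Ak4 and Mb, and every probe set that the platform annotation gives to exactly 1 of them was used. This rule found 13 of the 12422 probe sets on the arrays, for 7 of the 8251 genes that have such a probe set. Total RNA from hearts was hybridised to 15 one-colour arrays with Affymetrix-type probe sets, and each value is a linear intensity per probe set and array. The knockout group, CKO, carried αMHC-Cre+/0; MAT1F/F, that is, 1 Cre transgene and both Mnat1 alleles floxed, and was sampled at 4 weeks (5 arrays) and at 2 weeks (4 arrays). The control group were littermates with αMHC-Cre+/0; MAT1F/+, sampled at 4 weeks (3 arrays) and at 2 weeks (3 arrays). All 4 groups therefore carried the Cre transgene and at least 1 floxed allele, and the controls kept 1 wild-type allele. The α-myosin heavy chain promoter drives Cre in cardiomyocytes, so the other cells of the heart were not targeted, while the arrays measured RNA of the whole tissue. The labels do not say whether each array is a mouse of its own, so the p-values measure the spread between these arrays, which may be technical.

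A heart muscle cell makes nearly all its ATP in mitochondria and spends it at the myofibrils and ion pumps. Creatine kinases move the energy-rich phosphate between these places by passing it from ATP to creatine and back, and adenylate kinases rebuild ATP from a pair of ADP molecules and leave AMP, the fuel-low signal. Myoglobin binds oxygen inside muscle cells. MAT1, the product of Mnat1, helps to assemble the CDK-activating kinase of the general transcription factor TFIIH.

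At 4 weeks, the transcripts of myoglobin, Ak1 and the mitochondrial creatine kinase Ckmt2 were lower in CKO hearts than in control hearts, by 1.43-fold, 1.62-fold and 1.33-fold. At 2 weeks no member passed the test. Start regions of 5 members are printed here: Ckm, Ckmt2, Ak1 and Mb, which lay lower at 4 weeks, and Ckb, which lay higher. At that age Ckm and Ckb did not pass the test, nor did Ak3 and Ak4, which also lay lower and are not printed. The printed regions come from RefSeq on GRCm38.p6, cover 250 bases before to 50 bases after an annotated start, and read 5′ to 3′ on the gene's strand. RefSeq start regions were found for all 7 genes, with several starts for Ak1, Ak4 and Mb. Capitals mark matches, on either strand, to CANNTG (the E-box of basic helix-loop-helix factors), AAGGTCA (an estrogen-related receptor half-site), a MEF2-type site (CTA and TAG with 4 bases of any kind between them) and TATAAA. Ckm lies at chr7:19410844-19411143 on the plus strand, Ckmt2 at chr13:91876836-91877135 on the minus strand and Ckb at chr12:111672289-111672588 on the minus strand. Ak1 is shown at start 3 of 4, chr2:32628140-32628439 on the plus strand, and Mb at start 2 of 3, chr15:77022738-77023037 on the minus strand.
Ckm: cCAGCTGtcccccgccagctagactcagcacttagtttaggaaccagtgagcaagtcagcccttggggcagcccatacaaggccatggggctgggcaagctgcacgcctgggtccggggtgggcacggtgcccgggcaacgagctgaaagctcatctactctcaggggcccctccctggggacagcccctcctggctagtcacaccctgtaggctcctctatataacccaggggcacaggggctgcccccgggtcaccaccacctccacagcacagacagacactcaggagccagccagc
Ckmt2: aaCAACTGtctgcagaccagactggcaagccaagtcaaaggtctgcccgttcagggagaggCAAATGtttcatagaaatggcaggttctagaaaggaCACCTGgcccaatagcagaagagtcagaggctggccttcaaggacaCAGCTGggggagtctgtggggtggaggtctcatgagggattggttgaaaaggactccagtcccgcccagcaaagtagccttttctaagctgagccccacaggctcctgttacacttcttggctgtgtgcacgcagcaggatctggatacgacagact
Ckb: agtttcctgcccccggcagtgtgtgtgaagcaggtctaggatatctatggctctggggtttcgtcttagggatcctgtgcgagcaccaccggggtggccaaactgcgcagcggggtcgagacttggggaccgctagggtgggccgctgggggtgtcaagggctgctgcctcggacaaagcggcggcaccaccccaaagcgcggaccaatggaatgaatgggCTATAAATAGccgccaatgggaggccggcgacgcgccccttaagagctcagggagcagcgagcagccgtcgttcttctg
Ak1: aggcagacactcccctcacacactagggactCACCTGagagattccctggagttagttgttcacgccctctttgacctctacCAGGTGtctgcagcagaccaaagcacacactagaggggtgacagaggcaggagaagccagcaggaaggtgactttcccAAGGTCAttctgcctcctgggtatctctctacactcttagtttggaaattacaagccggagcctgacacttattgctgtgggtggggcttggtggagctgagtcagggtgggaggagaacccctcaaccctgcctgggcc
Mb: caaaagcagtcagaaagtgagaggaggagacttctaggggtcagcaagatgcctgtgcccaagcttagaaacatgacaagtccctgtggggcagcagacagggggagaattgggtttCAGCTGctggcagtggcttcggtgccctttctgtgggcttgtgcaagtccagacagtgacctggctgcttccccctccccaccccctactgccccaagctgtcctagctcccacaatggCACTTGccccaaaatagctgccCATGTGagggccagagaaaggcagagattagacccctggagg

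The Ckm window holds 1 E-box, the Ckmt2 window 4, the Mb window 3, the Ak1 window 2 and the Ckb window 0. E-boxes of this form occur in 72.3% of the 32851 RefSeq start windows of the same length. Of the 5 printed windows only that of Ckb holds a MEF2-type match, starting at position -29 and overlapping a TATAAA match at position -28, and the Ak3 window, not printed, holds a MEF2-type match at position -200. These motifs occur in 3.69% and 13.6% of all windows. The printed Ak1 window, start 3, holds AAGGTCA at position -90, a motif found in 4.72% of all windows. No other window of the 7 genes holds it, and those at starts 1, 2 and 4 of Ak1 lack it too. Matches therefore depend on the start shown. The Ak1 windows at starts 1, 2 and 4 hold 3, 1 and 1 E-boxes, and the Mb windows at starts 1 and 3 hold 2 and 4. The matches describe letters only. G and C made up 64.7% of the Ckm window, 63.0% of the Ckb window and 53.7% of the Ckmt2 window, against a median of 52.7% over all windows.

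Myoglobin and both creatine kinases of muscle were among the brightest probe sets on the arrays. Mb 100614_at had a mean intensity of 6705, brighter than 99.8% of all probe sets, and Ckmt2 103618_at followed with 5969 (99.7%). Ak1 96801_at averaged 2289, Ckm 161569_f_at 2167 and Ckb 93126_at 1351, the last of these still brighter than 93.7% of probe sets. Ak3 160233_at (353), Ak4 99521_at (226) and their second probe sets lay in the middle of the range. Levels of different probe sets cannot be ranked as transcript amounts, since each binds with its own strength. Of the 4 remaining probe sets, Ckmt2 162015_f_at was bright (1548), while Ckmt2 161876_r_at (mean 7.92), Ckm 160175_at (67.0) and Mb 100615_at (189) were dim, and Mb 100615_at lay at the floor of 0.95 on several arrays. In Affymetrix naming an f marks probes that can match related sequences, so the bright Ckm probe set and Ckmt2 162015_f_at may also read relatives. Ak3 and Ak4 share older names and were told apart by gene ID.

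The arrays fell into 2 sets by the correlation of their log2 intensities, with 6 arrays in set 1 and 9 in set 2, and each of the 4 groups had arrays in both. Any 2 arrays of 1 set correlated at 0.937 or more, any 2 of different sets at 0.924 or less, and array medians averaged 211 in set 1 and 182 in set 2. The labels do not name the sets. Results are therefore given also from a second fit that takes the array set as a block, called the blocked fit, and main results also within each set. Within set 1 each control group is 1 array, which is assumed to vary like the other groups. By the levels of Xist and Uty, 4 of 5 CKO and 1 of 3 control arrays at 4 weeks came from female hearts, and 1 of 4 CKO and 1 of 3 control arrays at 2 weeks. The 2 probe sets of the targeted gene were dim: Mnat1 161557_at ranged from 141 to 314 in CKO and from 86.0 to 244 in control hearts at 4 weeks, and Mnat1 98979_at from 38.9 to 78.3 in CKO and from 40.1 to 79.2 in control hearts. Neither passed the test at 4 weeks (0.53 ± 0.47 and -0.03 ± 0.27 on the log2 scale, limma adjusted p = 0.726 and 0.994). The first was higher in CKO hearts in the blocked fit (0.45 ± 0.15, limma adjusted p = 0.0384). At 2 weeks neither passed in either fit. Mnat1 98979_at then ranged from 23.7 to 52.0 in CKO and from 41.4 to 86.25 in control hearts (-0.47 ± 0.28). Mnat1 161557_at differed by 0.16 ± 0.49 at that age. Whether these probes lie in the deleted part is not known here, so they do not check the labels.

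**Figure D1:**
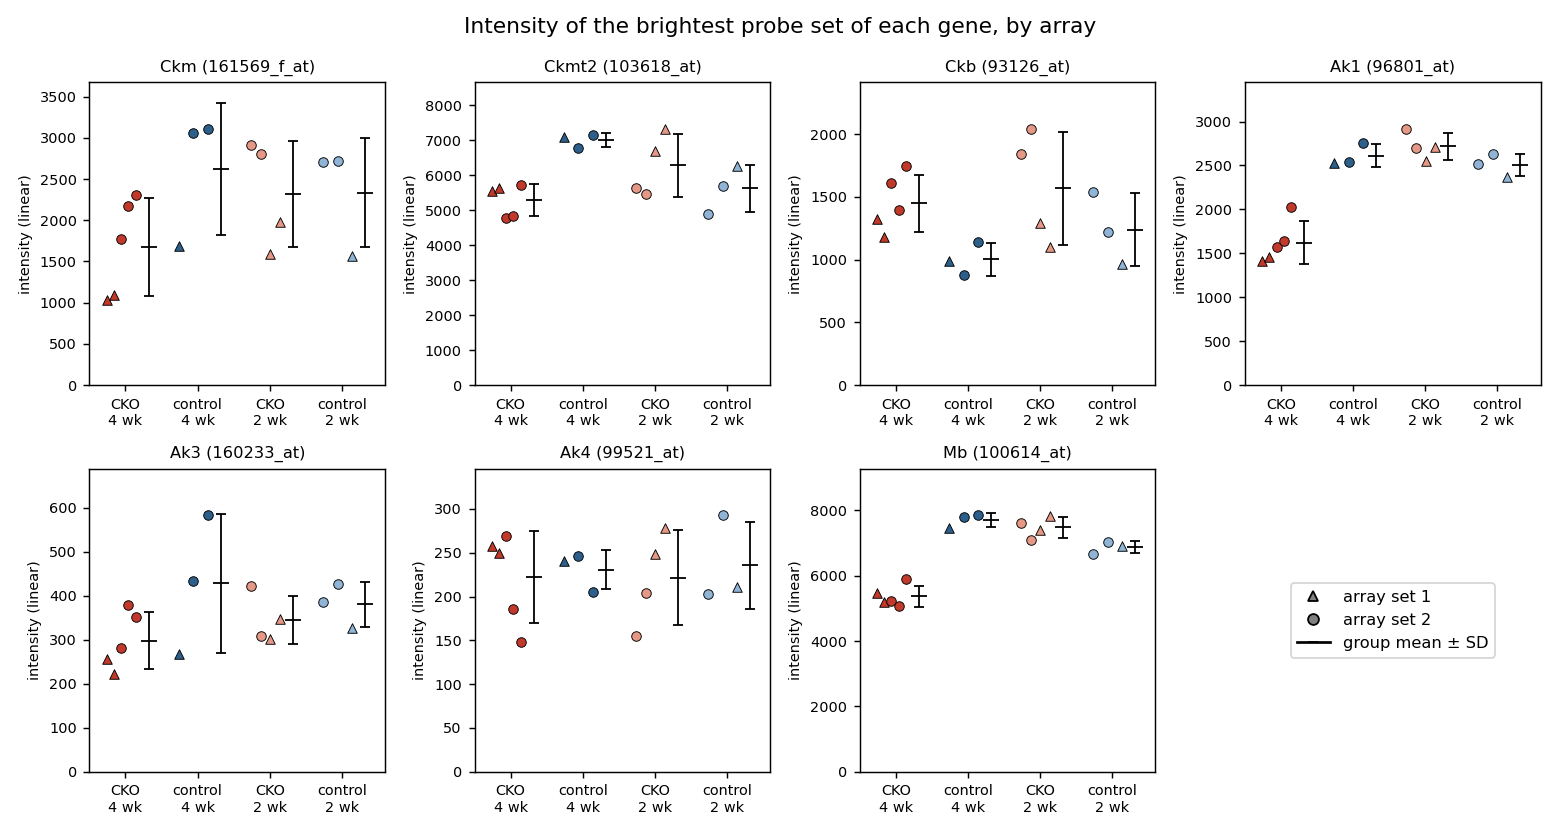
Linear intensity of the brightest probe set of each of the 7 genes on every array, by group (CKO left of control, 4 weeks left of 2 weeks), with triangles for array set 1, circles for array set 2 and bars for the group mean ± SD. In Mb and Ak1 every CKO array at 4 weeks lies below every control array of that age, while in Ckm the arrays of set 1 lie low in every group.

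At 4 weeks, 3 of the 13 member probe sets (23.1%) passed the test between CKO and control hearts, limma with Benjamini-Hochberg adjustment over all 12422 probe sets at an adjusted p under 0.05. All 3 were lower in CKO hearts, where 2.42% of all probe sets were called lower and 6.27% in either direction. With 1 probe set per gene and the dimmest 40% left out, 3 of 7 members were called lower, against 4.61% of the genes kept. The members were chosen with earlier results of these data known, so these shares do not test for an excess among them. Values were tested as log2(intensity + 16), which understates the changes of dim probe sets, and log2 differences are CKO minus control with the standard error of the fit. In whole-tissue RNA, fewer cardiomyocytes and less of a transcript per cardiomyocyte cannot be told apart. The median difference over the 13 probe sets was -0.46, against 0.07 over all probe sets. In the blocked fit, 7 of 13 passed (1 higher, 6 lower), where 22.2% of all probe sets did (14.5% higher and 7.7% lower). Over all probe sets the main test called 479 higher and 300 lower, quantile normalization 365 higher and 410 lower, and median scaling 287 higher and 300 lower, with 0 members higher and 3 lower under each of these alternatives, Ckmt2 162015_f_at taking the place of Ckmt2 103618_at under quantile normalization (limma adjusted p = 0.0197, against 0.0509). The groups did not overlap in 5 of the 13, against 12.9% of all probe sets.

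Ckm, the cytosolic creatine kinase of muscle, was read by a bright and a dim probe set. In every group the arrays of set 1 lay below those of set 2 for the bright one and above them for the dim one. The bright probe set 161569_f_at had 1031, 1090.35, 1767, 2179 and 2306 in CKO hearts at 4 weeks, against 1692, 3053 and 3113 in control hearts. The lowest value of each group came from set 1, and the groups overlapped. The difference was -0.67 ± 0.32 and did not pass the test (limma adjusted p = 0.328). It was -0.61 ± 0.09 in the blocked fit and passed (limma adjusted p = 0.000163), with -0.67 within set 1 and -0.57 within set 2. The blocked call held when any 1 of the 8 arrays was left out. The dim probe set 160175_at gave -0.08 ± 0.23 (limma adjusted p = 0.959) and -0.11 ± 0.13 in the blocked fit, and the 2 probe sets correlated at -0.65 across the 15 arrays and at 0.35 after each array set's mean was subtracted.

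Ckmt2, the sarcomeric creatine kinase of the mitochondrial intermembrane space, was lower in CKO hearts. Probe set 103618_at had 5536, 5649, 4768, 4827 and 5721 in CKO hearts at 4 weeks, against 7085, 6794 and 7164 in control hearts, with no overlap. The mean was 5300.2 ± 464 in CKO and 7014 ± 195 in control hearts (SD, n = 5 and 3), a log2 difference of -0.41 ± 0.11 (limma adjusted p = 0.0449). This call was close to the threshold: leaving out any 1 of the 8 arrays gave adjusted p-values of 0.0509 to 0.162. The blocked difference was -0.42 ± 0.07 (limma adjusted p = 0.000623), within-set differences were -0.34 in set 1 and -0.45 in set 2, and the call held without any 1 array. The second probe set, 162015_f_at, pointed the same way, with 1071, 1052, 1018, 1352 and 1604 in CKO hearts against 1316, 2166 and 2222 in control hearts. Its groups overlapped through 1 control array of set 1 and 2 CKO arrays of set 2, and its difference of -0.62 ± 0.21 missed the threshold (limma adjusted p = 0.117). It passed without control 4 wk replicate 1 (-0.86, limma adjusted p = 0.0250) and in the blocked fit (-0.59 ± 0.14, limma adjusted p = 0.00497). The third, 161876_r_at, ran from 0.95 to 16.2 in CKO hearts and from 0.95 to 26.5 in control hearts, too dim to read a difference (-0.22 ± 0.31).

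Ckb, the cytosolic creatine kinase first known from brain, was the one member that lay higher in CKO hearts at 4 weeks. Probe set 93126_at had 1321, 1179, 1610.03, 1396 and 1749 in CKO hearts against 988, 880.38 and 1140.19 in control hearts, so every CKO array lay above every control array. The difference of 0.52 ± 0.21 did not pass the test (limma adjusted p = 0.211). It was 0.55 ± 0.13 in the blocked fit (limma adjusted p = 0.00690), with 0.33 within set 1 and 0.65 within set 2, and the blocked call was lost without control 4 wk replicate 2 (0.39, limma adjusted p = 0.0623).

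Ak1, the main cytosolic adenylate kinase of muscle, fell most among the members that passed the test. It had 1411, 1456, 1568, 1635 and 2032 in CKO hearts at 4 weeks, against 2524, 2543 and 2759 in control hearts. The highest CKO array stayed below the lowest control array. The mean was 1621 ± 247 in CKO and 2608 ± 130 in control hearts (SD, n = 5 and 3), a difference of -0.69 ± 0.11 (limma adjusted p = 0.00218). The blocked fit gave -0.68 ± 0.08 (limma adjusted p = 1.92e-05), with -0.81 within set 1 and -0.61 within set 2. The call held without any 1 array, in both fits.

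Ak3 and Ak4 are adenylate kinases of the mitochondrial matrix, and Ak3 uses GTP in place of ATP. Ak3 160233_at had 256, 223, 281, 379 and 352 in CKO hearts at 4 weeks, against 267, 435 and 583 in control hearts. The groups overlapped, and the difference of -0.46 ± 0.23 did not pass (limma adjusted p = 0.372, and 0.0624 in the blocked fit, or 0.0152 in the blocked fit without control 4 wk replicate 1). Ak3 92492_at gave -0.10 ± 0.21. Ak4 99959_at had 146, 157, 148, 121 and 139 in CKO hearts against 195, 192 and 250.03 in control hearts, with no overlap and a difference of -0.52 ± 0.21 (limma adjusted p = 0.190). Its blocked difference was -0.54 ± 0.16 (limma adjusted p = 0.0250), a call that held in 4 of 8 fits that each left out 1 array. It was lost without control 4 wk replicate 2 or 3 and without CKO 4 wk replicate 1 or 4, at adjusted p-values up to 0.167. The brighter Ak4 99521_at gave -0.08 ± 0.22, so the probe sets of Ak4 did not give 1 answer, and they correlated at 0.43 across the 15 arrays.

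Mb, the oxygen-binding protein of muscle, had the smallest adjusted p of the members. Probe set 100614_at had 5484, 5208, 5234, 5079.54 and 5894 in CKO hearts at 4 weeks, against 7466, 7802 and 7853 in control hearts. The highest CKO array, at 5894, lay below the lowest control array, at 7466. The mean was 5379.9 ± 323 in CKO and 7707 ± 210.1 in control hearts (SD, n = 5 and 3), a difference of -0.52 ± 0.07 (limma adjusted p = 0.000363). It was -0.52 ± 0.05 in the blocked fit (limma adjusted p = 3.83e-06), -0.48 within set 1 and -0.54 within set 2. The other probe set, 100615_at, ran from 0.95 to 379.67 in CKO hearts and from 41.3 to 609 in control hearts, and its difference of -1.37 ± 1.48 was within its own error, with -5.20 within set 1, where 2 CKO arrays at the floor stood against 1 control array, and 0.85 within set 2.

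Sex was not balanced between the groups at 4 weeks, and the members were also tested with array set and sex as blocks, where 6 of 13 passed (1 higher, 5 lower), against 18.8% of all probe sets (12.1% higher and 6.74% lower). Mb 100614_at differed by -0.47 (limma adjusted p = 4.29e-06), Ak1 by -0.63 (5.69e-05), Ckmt2 103618_at by -0.34 (0.000317), Ckm 161569_f_at by -0.56 (0.000582) and Ckb by 0.46 (0.0225), all past the threshold, as was Ckmt2 162015_f_at at -0.47 (0.0121). Ak4 99959_at differed by -0.41 and did not pass (limma adjusted p = 0.0748). In control hearts at 4 weeks the array of set 1 was female and those of set 2 were male, so sex and array set coincided there. Among CKO arrays at 4 weeks only replicate 5 was male, and it was the highest CKO array for Mb 100614_at, Ak1 and Ckmt2 103618_at. This fit therefore separates sex from group only in part.

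**Figure D2:**
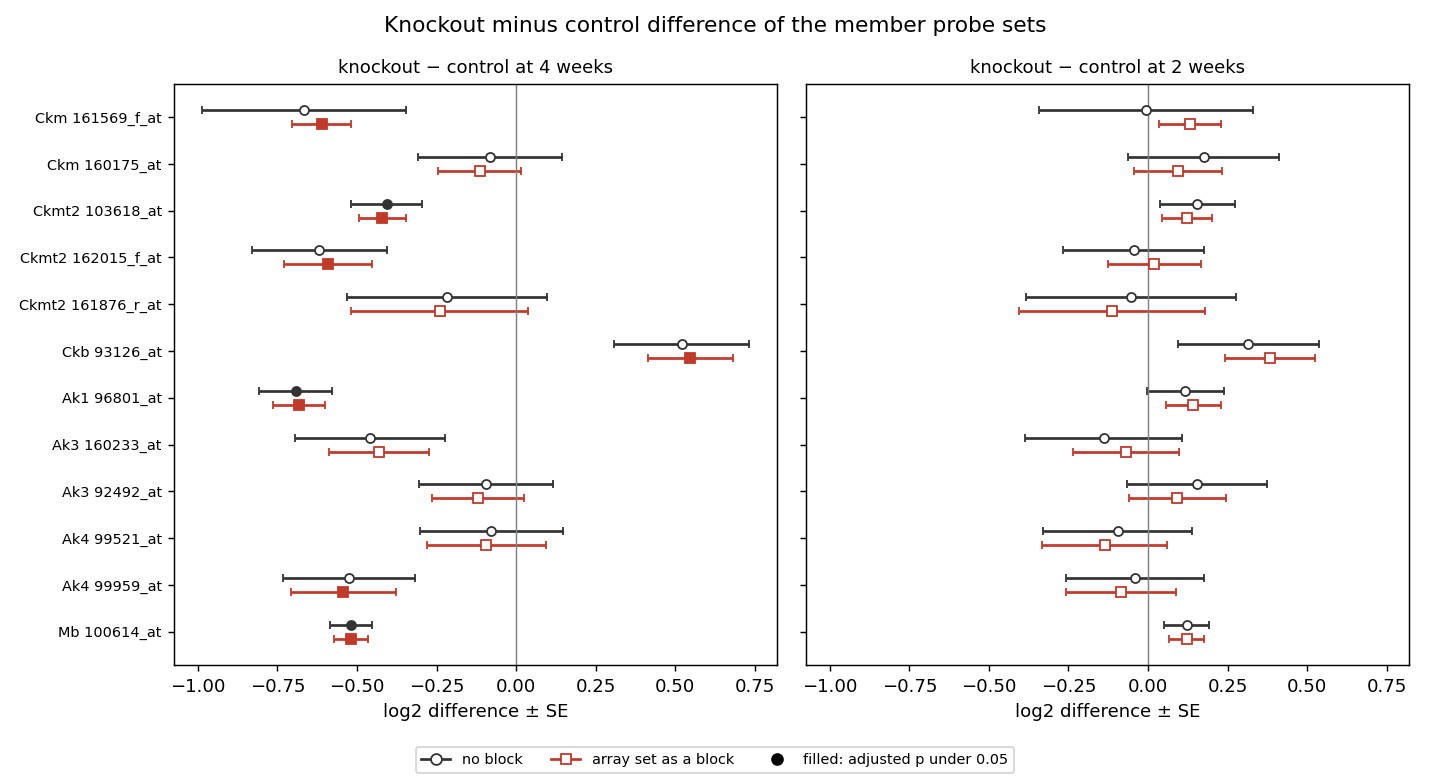
Log2 difference between CKO and control hearts (± SE) of 12 member probe sets at 4 weeks (left) and at 2 weeks (right), in the main fit (circles) and in the fit with an array set block (squares), filled where the adjusted p is under 0.05. Mb 100615_at is left out because its SE of 1.48 would stretch the axis. At 4 weeks 3 circles and 7 squares are filled, and at 2 weeks none.

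At 2 weeks, 0 of the 13 member probe sets passed the test between CKO and control hearts, where limma called 1 of 12422 probe sets (0.00805%) and 129 had an unadjusted p under 0.05. In the blocked fit, 0 of 13 passed and 7 probe sets in all (0.0564%). Mb 100614_at had 7622, 7093, 7388 and 7823 in CKO hearts at 2 weeks, against 6670.05, 7046 and 6907 in control hearts. Every CKO array lay above every control array, which held for 1.52% of all probe sets (2.25% did not overlap in either direction), but the difference of 0.12 ± 0.07 did not pass (limma adjusted p = 1). Ak1 had 2921, 2699, 2549 and 2713 in CKO hearts against 2520.43, 2627 and 2372 in control hearts, a difference of 0.12 ± 0.12 with overlapping groups. Ckmt2 103618_at had 5636, 5452, 6693 and 7338 in CKO hearts against 4904, 5704 and 6263 in control hearts, and the groups overlapped (0.16 ± 0.12).

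The other kinases gave no call at 2 weeks either. Ckm 161569_f_at had 2911, 2799.5, 1590.33 and 1977 in CKO hearts, against 2706, 2721 and 1568 in control hearts, and again its lowest values were those of set 1 (-0.01 ± 0.34, and 0.13 ± 0.10 in the blocked fit). Ckb had 1842, 2046, 1289 and 1097 in CKO hearts against 1539, 1218 and 965 in control hearts, with a difference of 0.32 ± 0.22, and 0.38 ± 0.14 in the blocked fit (limma adjusted p = 0.811). The probe sets of Ak3 and Ak4 differed by -0.14 to 0.15, each by less than its standard error. A missed threshold at 2 weeks does not show that the groups were alike.

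The difference between the CKO effects at 4 and at 2 weeks was tested as an interaction over the 4 groups. Mb and Ak1 passed, 2 of 13 member probe sets and both with the lower effect at 4 weeks, where 0.258% of all probe sets were called lower and 0.531% in either direction. For Mb 100614_at the effect at 4 weeks minus that at 2 weeks was -0.64 ± 0.10 (limma adjusted p = 0.00972), and it passed in all 15 fits that each left out 1 array. For Ak1 it was -0.81 ± 0.17 (limma adjusted p = 0.0470), and of those 15 fits only the one without CKO 4 wk replicate 5 kept the call, with adjusted p-values of 0.0135 to 0.160 over the 15. Both calls ended when each array was scaled to the same median (adjusted p = 0.235 for Mb and 0.393 for Ak1) and without the intensity trend (0.145 and 0.123), with the differences themselves at -0.67 and -0.84 under median scaling. They also ended within array set 1, where each control group is 1 array (-0.62, adjusted p = 0.100 for Mb and -0.96, adjusted p = 0.0790 for Ak1). A block on replicate number gave -0.67 for Mb (adjusted p = 0.0769) and -0.89 for Ak1 (adjusted p = 0.0932). Blocked by array set, 4 of 13 passed, against 5.5% of all probe sets. These were Mb (-0.64 ± 0.08, limma adjusted p = 0.000135), Ak1 (-0.82 ± 0.12, limma adjusted p = 0.000596), Ckm 161569_f_at (-0.74 ± 0.13, limma adjusted p = 0.00365) and Ckmt2 103618_at (-0.54 ± 0.11, limma adjusted p = 0.00650). The Ckb effects at 4 and 2 weeks differed by 0.20 ± 0.31, which did not pass, so the higher Ckb level was not shown to belong to 1 age.

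How these genes move with age was read from control hearts at 4 weeks against control hearts at 2 weeks. None of the 13 member probe sets passed the test of 4 against 2 weeks in control hearts, where limma called 42 of 12422 probe sets (0.338%) and 672 had an unadjusted p under 0.05. Blocking by array set let 1 pass, Ckmt2 103618_at at 0.32 ± 0.08 (limma adjusted p = 0.0465), against 2.97% of all probe sets. Mb 100614_at averaged 7707 ± 210.1 at 4 weeks and 6874 ± 190.2 at 2 weeks in control hearts (SD, n = 3 each). Its difference was 0.16 ± 0.07 (limma adjusted p = 0.911). Ckmt2 103618_at averaged 7014 ± 195 at 4 weeks and 5624 ± 683 at 2 weeks (SD, n = 3 each), and Ak4 99959_at 212 ± 32.7 at 4 weeks and 144 ± 24.9 at 2 weeks (SD, n = 3 each). In these 3 probe sets every control array at 4 weeks lay above every control array at 2 weeks, which held for 4.49% of all probe sets (8.7% did not overlap in either direction). Ckb differed by -0.28 ± 0.24, and Ak1 by 0.06 ± 0.13. In the order of group means Mb ran lowest in CKO hearts at 4 weeks, then control hearts at 2 weeks, CKO hearts at 2 weeks and control hearts at 4 weeks, and the last pair overlapped in range. The comparisons at 4 weeks and between the ages share the control arrays at 4 weeks.

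How the members varied among themselves was described over the 15 arrays. After each array set's mean was subtracted, Ak1 and Mb correlated at 0.96 over the 15 arrays, Ckm and Ak1 at 0.96, Ckm and Mb at 0.945 and Ckmt2 and Mb at 0.83. Without that step Ak1 and Mb stayed at 0.94, while Ckm and Ckmt2 went with the sets (0.04, against 0.80 after it). Ckb correlated with Ckmt2 at -0.56 and with Mb at -0.33, and Ak4 99521_at with Mb at 0.03. All pairs share the 15 arrays, their scaling and the 4 groups, so these values are a description.

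A search of 4951 genes for those most like each member used the same measure, over the same 15 arrays. Hadhb, a subunit of the mitochondrial trifunctional protein of fatty acid oxidation, came first for Ckm at 0.98. Dlst, a subunit of 2-oxoglutarate dehydrogenase, came first for Ak1 at 0.98 and was followed by the citrate synthase gene Cs at 0.97 and Mb at 0.96. For Mb the 3 most alike were Dnaja3, a mitochondrial co-chaperone, at 0.97, the ATP synthase subunit Atp5a1 at 0.97 and the ADP/ATP carrier Slc25a4 at 0.96. Ckb was most like Cfl1, the actin-severing protein cofilin, at 0.92. Ckmt2 was most like Fem1a at 0.93, a value that was 0.18 without subtracting the set means. Ak3 was most like Osbpl1a at 0.87, followed by the fatty acid sensor Ppara at 0.86, and Ak4 was most like Gpsm3 at 0.91. Without subtracting the set means, Ckm with Hadhb gave 0.72, Ak1 with Dlst 0.83, Mb with Dnaja3 0.81 and Ckb with Cfl1 0.89. Ak3 then gave 0.72 with Osbpl1a and 0.52 with Ppara, and Ak4 0.88 with Gpsm3. These are the highest of 4951 values with group differences left in, so they are a description.

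Other genes of the energy transfer system were counted at 4 weeks from the brightest probe set of each gene, as CKO minus control. For comparison, the main test called 3.86% of all probe sets higher and 2.42% lower. With 1 probe set per gene and the dimmest 40% left out, the shares were 6.6% higher and 4.61% lower. The blocked fit called 14.5% of all probe sets higher and 7.7% lower. Of 6 carriers and porins, which pass phosphate and nucleotides through the mitochondrial membranes, 2 fell and 0 rose. Slc25a4, the ADP/ATP carrier of heart and muscle, averaged 5735 ± 126 in CKO and 8044 ± 369 in control hearts (SD, n = 5 and 3), a difference of -0.49 ± 0.07 (limma adjusted p = 0.000547). The porin Vdac2 fell by 0.63 ± 0.13 on the log2 scale (limma adjusted p = 0.00939), and Vdac3 also passed in the blocked fit (-0.32 ± 0.08, limma adjusted p = 0.00874). The more widely expressed carrier Slc25a5 gave 0.14 ± 0.14. The median over the 6 was -0.26, against 0.07 over all probe sets.

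Of 7 genes of adenine nucleotide turnover and AMP sensing, 1 rose and 1 fell, against 3.86% and 2.42% of all probe sets. Nt5e, the cell-surface enzyme that makes adenosine from AMP, averaged 181 ± 49.7 in CKO and 74.5 ± 2.55 in control hearts (SD, n = 5 and 3), a difference of 1.09 ± 0.24 (limma adjusted p = 0.0121). Prkab1, a beta subunit of the AMP-activated protein kinase, averaged 182 ± 53.3 in CKO and 493 ± 213 in control hearts (SD, n = 5 and 3), and fell by 1.31 ± 0.34 on the log2 scale (limma adjusted p = 0.0311). Ampd3, an AMP deaminase, passed only in the blocked fit (-0.49 ± 0.16, limma adjusted p = 0.0331). The catalytic subunits of that kinase and 5 other genes of the list had no single-symbol probe set and were not analysed here.

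None of 4 genes of creatine synthesis and uptake passed in the main test. Blocked calls below stand against 14.5% of all probe sets called higher and 7.7% called lower in that fit. With the array set as a block Slc6a8, the creatine transporter, passed at 0.33 ± 0.09 (limma adjusted p = 0.0169) and Slc6a12, a betaine and GABA transporter of the same family, at 0.35 ± 0.10 (limma adjusted p = 0.0245), while Gatm and Gamt, the enzymes that make creatine, did not. None of 7 other phosphotransfer enzymes passed in the main test. With that block Nme1 (0.93 ± 0.20, limma adjusted p = 0.00250) and the guanylate kinase Guk1 (0.46 ± 0.09, limma adjusted p = 0.00135) were higher in CKO hearts and Nme2 lower (-0.26 ± 0.07, limma adjusted p = 0.0120), Nme1 and Nme2 being nucleoside diphosphate kinases of closely related sequence. Of 4 genes of the oxygen response, Egln1, an oxygen-dependent prolyl hydroxylase that marks HIF for breakdown, fell by 0.51 ± 0.11 on the log2 scale (limma adjusted p = 0.00927). In the blocked fit Hif1a was higher (0.37 ± 0.11) and Epas1 (-0.41 ± 0.14) and Vegfa (-0.44 ± 0.13) were lower. At 2 weeks 0 genes of these 5 lists passed in limma in either fit.

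**Figure D3:**
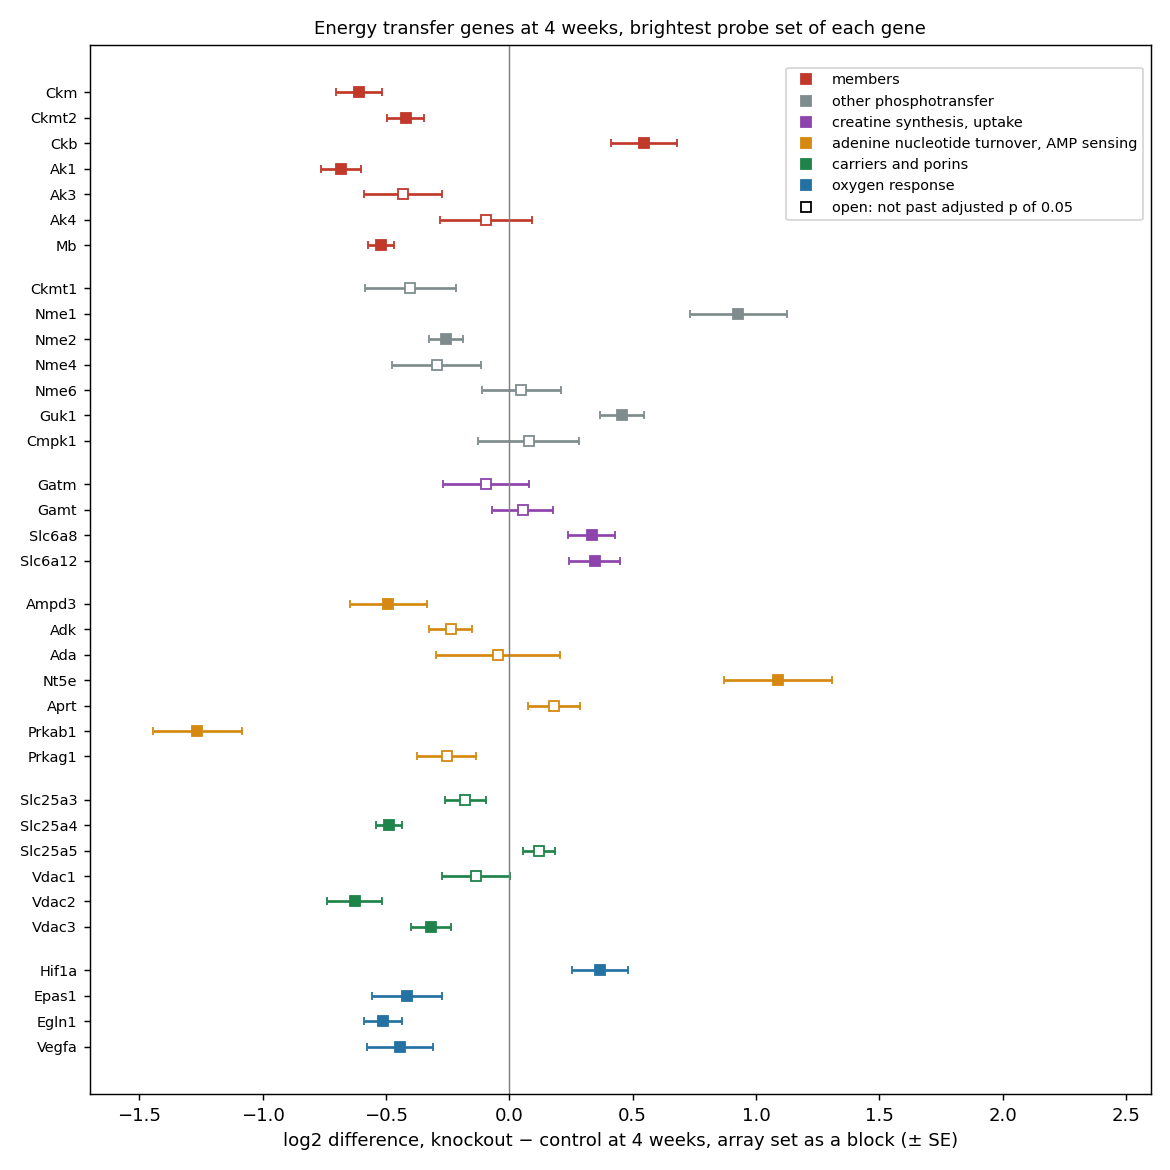
Log2 difference between CKO and control hearts at 4 weeks from the fit that takes the array set as a block (± SE) for the brightest probe set of the 7 members and of 28 other energy transfer genes, coloured by list and filled where the adjusted p is under 0.05. Of the members 5 are filled, 4 to the left of 0 and Ckb to the right.

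Markers of cell types were read from the same arrays at 4 weeks. Myh6, the heart myosin heavy chain, was among the brightest probe sets, with 8799 ± 415 in CKO and 11553 ± 857 in control hearts (SD, n = 5 and 3). The cardiomyocyte markers Myh6, Tnnt2, Tnni3 and Ryr2 were lower in CKO hearts, 4 of 10 measured, while Myl2 (-0.04 ± 0.06) and Actc1 (0.09 ± 0.07) did not pass. Actn2, an actinin of the Z-disc, lay the other way, with 6581 ± 708 in CKO and 4721 ± 883 in control hearts (SD, n = 5 and 3), a difference of 0.49 ± 0.14 that missed the threshold (limma adjusted p = 0.0516) and passed in the blocked fit (0.51 ± 0.05, limma adjusted p = 4.91e-06). That fit called 1 of the 10 higher and 5 lower, against 14.5% and 7.7% of all probe sets, and the main test 0 higher and 4 lower, against 3.86% and 2.42%. The summed intensity of the cardiomyocyte markers ran from 67764 to 72132 in CKO and from 77614 to 82730.0 in control hearts, and the sum over the 7 members from 15054 to 18203 in CKO and from 20262 to 22818 in control hearts. At 2 weeks the member sum was separated the other way, from 20061 to 21574 in CKO and from 18613 to 20036 in control hearts. At 4 weeks all 8 fibroblast and matrix markers were called higher in CKO than in control hearts. Their sums were 24246 to 32492 in CKO against 10964 to 12844 in control hearts, and their median difference was 1.47. In control hearts the same markers lay lower at 4 than at 2 weeks, with a median difference of -1.16. For that age comparison the main test called 1 of the 8 lower, against 0.0564% of all probe sets, and the blocked fit 6, against 1.39%. The part of these marker shifts in the lower member transcripts was not tested.

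Since Ckm and Ak1 also belong to skeletal muscle, markers of that tissue were read too. Of 13, Myl1, a myosin light chain, was called and rose (2.85 ± 0.56, limma adjusted p = 0.00640), with 5777 ± 322 in CKO and 915 ± 551 in control hearts (SD, n = 5 and 3), and the sum ran from 9879.8 to 12084 in CKO and from 6407 to 7439 in control hearts. Myl1 carried that gap: without it the other 12 markers summed to 4290.4 to 6438 in CKO and 5474 to 6145 in control hearts, and the groups overlapped. In the blocked fit Actn3 was also higher (0.55 ± 0.17, limma adjusted p = 0.0305) and Myh8 lower (-0.76 ± 0.17, limma adjusted p = 0.00329). The fast skeletal troponin Tnnt3 averaged 67.6 ± 28.4 in CKO and 44.2 ± 9.88 in control hearts (SD, n = 5 and 3), and Mylpf 60.3 ± 13.6 in CKO and 46.0 ± 19.8 in control hearts (SD, n = 5 and 3), both dimmer than most probe sets. Of 5 smooth muscle markers 2 rose (Acta2 and Cnn1), and of 8 endothelial markers 1 rose (Eng), against 3.86% of all probe sets. With the array set as a block 3 of the 5 and 2 of the 8 were higher and 1 of the 8 lower, against 14.5% and 7.7% of all probe sets. The smooth muscle sum ran from 4307 to 7297 in CKO and from 2788 to 3561 in control hearts, with no overlap. The macrophage, erythroid, nerve and glia, and adipocyte markers gave 0 calls out of 6, 3, 6 and 4 in the main test. In the blocked fit 1 of the 3 erythroid markers was higher, and the other lists named here gave 0 calls. The erythroid sum ran from 7501 to 13440 in CKO and from 6002 to 7397 in control hearts, with no overlap. The nerve and glia sum, read because Ckb is abundant there, ran from 260.02 to 554 in CKO and from 330 to 598 in control hearts. At 2 weeks 0 markers of any of these lists passed, and the fibroblast and matrix sum was 16232 to 28145 in CKO and 15815 to 23251 in control hearts. The smooth muscle sum at 2 weeks ran from 5543 to 7381 in CKO and from 4174 to 5252 in control hearts. It did not overlap at that age either, so its gap was not limited to 4 weeks.

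**Figure D4:**
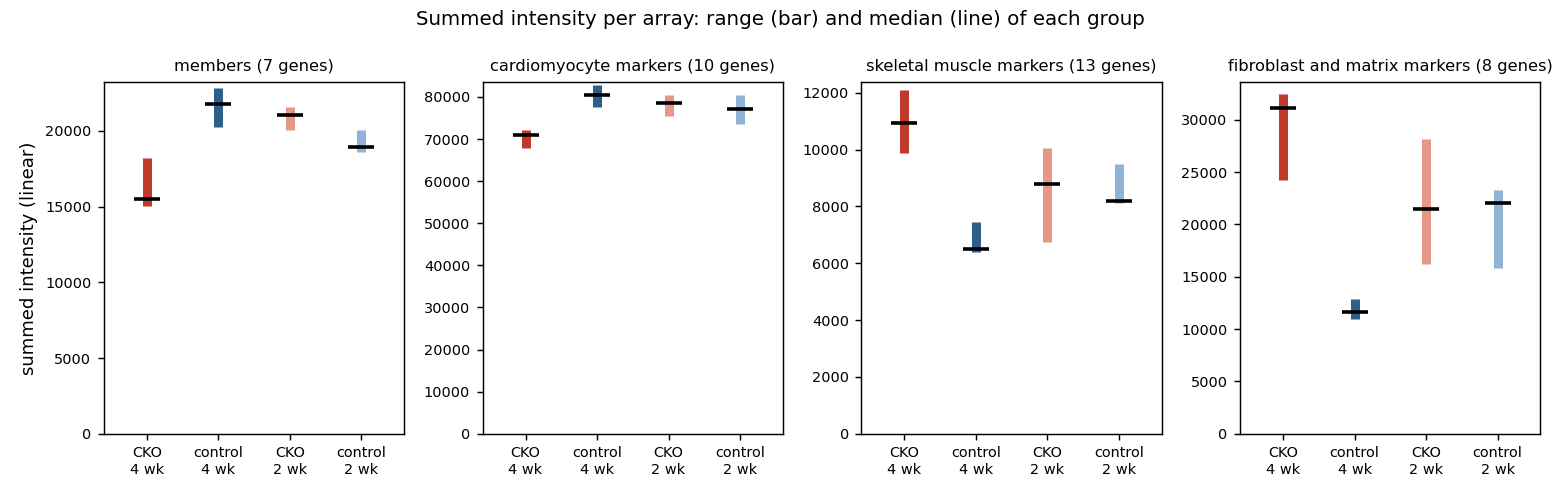
Summed linear intensity per array of the members and of 3 marker lists (brightest probe set of each gene), by group, with bars from the lowest to the highest array and a line at the median. In CKO hearts at 4 weeks the member and cardiomyocyte sums lie below, and the fibroblast and skeletal muscle sums above, those of control hearts of that age, the skeletal muscle sum through Myl1 alone, as the sum of the other 12 markers overlapped between the groups. At 2 weeks the member sum of every CKO array lies above that of every control array.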

How the data were processed

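The deposited values are linear intensities per probe set and array, with a floor of 0.95. Per the labels, total RNA was taken up in Trizol, cleaned on RNeasy columns and labelled with biotin. The sources used here do not give how the authors corrected background, summarised probes and scaled arrays. The deposited scaling was kept: array medians ran from 174 to 217, a ratio of 1.25. Probe sets were named through the platform annotation and updated by gene ID in RefSeq (GRCm38.p6), and of all probe sets 10833 had 1 symbol, 396 had several and 1193 had none.

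Tests used limma 3.58.1 in R 4.3.3 on log2(intensity + 16), with 1 coefficient per group over all 15 arrays, an intensity trend in the spread, two-sided p-values and Benjamini-Hochberg adjustment over 12422 probe sets. Adjusted p-values in the text come from limma. The fit was also run on simulated data, an outcome that is not given here and that no result rests on. The number of arrays limits the precision. All 7 members are named whatever their values, with every probe set, and other pathway genes where they passed the test or as counts. The members and the lists were chosen with earlier results of these data known. Groups came from the titles. At 2 weeks same-numbered CKO and control arrays deviated together from their group means (correlations of 0.66, 0.59 and 0.85), and the arrays of each pair shared an array set. The array sets were found from the intensities, and sex from Xist and Uty. Alternatives were other scalings, pseudocounts of 1 and 64, leaving out the dimmest 40% of probe sets, 1 probe set per gene, array weights, array set, sex and replicate number as blocks, and each array left out. Array weights were estimated gene by gene, a choice made after the default estimate did not converge. Leaving out arrays in the blocked fit was added after seeing the data. The CKO hearts were not compared between ages, as no such comparison was set up.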

Additional observations from a re-analysis of the deposited data

Results flagged for a closer look

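In the main test of the difference between the ages, the effect of the knockout on Mb and on Ak1 passed. For Mb 100614_at the CKO minus control difference was -0.52 at 4 weeks and 0.12 at 2 weeks, and the effects differed by -0.64 ± 0.10 (limma adjusted p = 0.00972). For Ak1 96801_at it was -0.69 at 4 weeks and 0.12 at 2 weeks, and the effects differed by -0.81 ± 0.17 (limma adjusted p = 0.0470). Of the 15 fits that each left out 1 array, all 15 kept the Mb call and 1 kept the Ak1 call. Both calls ended under median scaling, without the intensity trend and with the replicate block. At 4 weeks all 5 CKO arrays lay below all 3 control arrays for both genes. In 26 groups of 4 or 5 arrays, 13 probe sets in CKO hearts at each age, 0 had an array far from the others by Dixon's criterion. Groups of 3 were not examined.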

How the results depend on the processing

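Under every alternative run, Mb 100614_at and Ak1 stayed lower in CKO hearts at 4 weeks and stayed past the threshold. At 4 weeks 3 member probe sets were called (6.27% of all probe sets), against 6 with array weights (16.6%), 7 with array set as a block (22.2%), 8 with that block and quantile normalization (21.8%), 7 within array set 2 (16.2%) and 6 with array set and inferred sex as blocks (18.8%), so the calls over all probe sets grew as well. Leaving out 1 array gave 2 to 3, or 5 to 8 with array set as a block. The call of Ckmt2 103618_at ended under quantile normalization, without the intensity trend, within array set 1 and with the replicate block (adjusted p = 0.0509, 0.136, 0.0733 and 0.131). For the difference between the ages 2 were called (0.531% of all probe sets), against 0 under median scaling (0.0966%), 0 without the intensity trend (0.242%), 4 with array set as a block (5.5%), 5 with that block and quantile normalization (6.15%), 1 within array set 1 (0.185%), which was Mb 100615_at and neither Mb 100614_at nor Ak1, and 4 with array set and sex as blocks (4.02%). Leaving out 1 array gave 1 to 2 there. For 4 against 2 weeks in control hearts 0 were called (0.338%), against 1 with array weights (4.54%), 1 with array set as a block (2.97%) and 1 with array set and sex as blocks (3.74%). At 2 weeks the count stayed at 0 under every alternative. The cause of these shifts was not tested.

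At 4 weeks deviations from the group means of same-numbered CKO and control arrays correlated at 0.79, -0.52 and 0.47, so the numbers did not pair all arrays. The pair at -0.52 had its arrays in different array sets, and all other pairs at either age shared a set. The labels give the numbers no meaning of their own. With the replicate block 2 member probe sets were called at 4 weeks (Mb and Ak1), 0 at 2 weeks, 0 for the difference between the ages and 0 for 4 against 2 weeks in control hearts. Over all probe sets the replicate block called 372, 1, 4 and 14 in these comparisons, against 779, 1, 66 and 42 in the main test, and the block moved the count at 4 weeks, for the difference and for age by over 1.5 times.

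Other changes of sign concerned values that were not past the threshold in the main test. At 4 weeks Ckmt2 161876_r_at was 0.41 within set 1, -0.50 to 0.17 without 1 array and -0.53 to 0.22 with the set block too, Ak3 92492_at 0.076 within set 1 and 0.0029 with set and sex as blocks, Ak4 99521_at 0.072 within set 1, 0.046 with the replicate block, -0.15 to 0.048 without 1 array and -0.20 to 0.017 with the set block too, Ckm 160175_at -0.22 to 0.10 without 1 array and Mb 100615_at 0.85 within set 2. At 2 weeks Ckm 161569_f_at was 0.13 with the set block, 0.093 with quantile normalization added, 0.18 within set 1, 0.073 within set 2, 0.12 with set and sex as blocks and -0.27 to 0.16 without 1 array. Ckmt2 162015_f_at was 0.020 with the set block, 0.047 within set 2 and -0.14 to 0.12 without 1 array. Ckmt2 161876_r_at was 0.13 with a pseudocount of 1, 0.061 with array weights and -0.30 to 0.12 without 1 array. Ak3 92492_at was -0.065 within set 2, Ak4 99521_at 0.30 within set 1 and -0.21 to 0.061 without 1 array, and Ak4 99959_at 0.028 with array weights, 0.12 within set 1 and -0.20 to 0.11 without 1 array. For the difference between the ages Ckmt2 161876_r_at was 0.66 within set 1, 0.049 with set and sex as blocks and -0.44 to 0.22 without 1 array. Ak4 99521_at was -0.031 under quantile normalization, -0.0065 under median scaling, -0.017 with array weights, -0.024 with the set block and quantile normalization, -0.23 within set 1, -0.0045 with set and sex as blocks and -0.14 to 0.14 without 1 array. For 4 against 2 weeks in control hearts Ckmt2 162015_f_at was -0.13 within set 1, Ckmt2 161876_r_at -0.047 with array weights, -0.49 within set 1 and -0.32 to 0.34 without 1 array, Ckb 0.034 within set 1, Ak3 160233_at -0.28 within set 1 and -0.14 to 0.40 without 1 array, Ak3 92492_at -0.17 within set 1 and -0.032 to 0.23 without 1 array. There Ak4 99521_at was 0.024 under quantile normalization with or without the set block, 0.016 under median scaling, 0.18 within set 1 and -0.10 to 0.14 without 1 array, Ckm 160175_at -0.060 to 0.30 and Ckm 161569_f_at -0.10 to 0.44 without 1 array. Intensities near the floor limit the reading of Ckmt2 161876_r_at and Mb 100615_at.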
